A study of Mus musculus with 6 samples.

Results

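The 3 libraries in which the CDP-ethanolamine pathway was inhibited were compared, as 1 group, with the 2 control libraries, so that 5 of the 6 libraries of the series entered the comparison. All were poly(A) RNA from mouse embryonic fibroblasts (strain CBA/CaJ X C57BL/6J) on day 2 of reprogramming, transfected with short hairpin RNAs and grown in iCD1 medium. The control libraries, shLuc replicates 1 and 2, carried a hairpin against luciferase in complete medium. The pathway libraries were shEtnk1/2, with hairpins against the ethanolamine kinases, shPcyt2, with a hairpin against the enzyme that makes CDP-ethanolamine, and Etn-deprived, with the luciferase hairpin in iCD1 medium lacking ethanolamine (Etn). The sixth library, shPebp1, with a hairpin against the phosphatidylethanolamine-binding protein gene, entered only the filter on expression and is given beside some genes. Each pathway treatment had 1 library. Whether both shLuc libraries came from separate cultures is not stated, so p-values measure only the spread between these samples, which may be technical.

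Levels are the authors' RPKM values (reads scaled to gene length and to library size), and differences are on the scale log2(RPKM + 1), which understates those of genes with low values. Of 18301 symbols in the table, 11816 averaged at least 1 RPKM across the 6 libraries and were not short RNAs. Values are always given in the order shLuc replicates 1 and 2, then shEtnk1/2, shPcyt2 and Etn-deprived, with the difference (pathway minus shLuc) and its standard error (SE) in brackets. For each of these genes the 3 pathway libraries and the 2 shLuc libraries form 6 pairs. A gene is said to lie on one side when the pathway library was the higher in all 6 pairs, or the lower in all 6. The gap is the distance on the log2 scale between the nearest libraries of the groups. Each library held between 18467583 and 20020465 reads in genes. Fibroblast markers were abundant, with all 11 markers tested and summed levels of 10682 to 13596 RPKM in the 5 libraries. Of 8 lists of markers of other cell types, that for the red blood cell lineage summed to under 1 RPKM in each of the 5 libraries and that for skeletal muscle to 3.77 to 7.51 RPKM. The highest were those for neural and glial cells, at 90.7 to 123.2 RPKM, and for macrophages, at 55.2 to 68.9 RPKM. Those for endothelial cells and cartilage summed to 23.2 to 26.8 and 23.3 to 27.0 RPKM. In bulk RNA, fewer cells of a type and less RNA per cell cannot be told apart.

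The library labelled shLuc replicate 2 stood against its label for 1 gene. Pebp1, which binds phosphatidylethanolamine, had 250.4 and 101 RPKM in shLuc and 229, 263 and 210.5 RPKM in the pathway libraries, and 99.6 RPKM in shPebp1. The counts of genes on one side, and several list medians, are also given without that library.

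Phosphatidylethanolamine is a major phospholipid of cell membranes. In the CDP-ethanolamine branch of the Kennedy pathway, ethanolamine is phosphorylated by the kinases Etnk1 and Etnk2, Pcyt2 turns phosphoethanolamine into CDP-ethanolamine, and the transferases Ept1 and Cept1 join it to diacylglycerol. Early in reprogramming, fibroblasts lose mesenchymal genes such as those of the collagen matrix and gain epithelial genes such as Cdh1, a change called the mesenchymal-to-epithelial transition, and the series asked how the pathway bears on it.

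The targeted genes came first. Pcyt2 (mm10 chromosome 11, 120610087 to 120617890) had 42.02 and 40.05 RPKM in shLuc and 35.6, 29.9 and 33.5 RPKM in the pathway libraries. It was thus lowest in shPcyt2, at 72.9% of the shLuc mean, but lay below both shLuc libraries in all 3 pathway libraries, with a difference of -0.31, SE 0.09 and a gap of 0.17. Etnk1 (mm10 chromosome 6, 143167230 to 143208547) had 21.02 and 21.4 RPKM in shLuc and 12.5, 19.8 and 23.7 RPKM in the pathway libraries, so that it was low in shEtnk1/2 alone. Etnk2 (mm10 chromosome 1, 133363572 to 133380319) was under the filter with 21 and 45 reads in shLuc and 15 in shEtnk1/2. Of 11 genes tested of the pathway and its neighbours, 1 lay on the higher side and 1, Pcyt2, on the lower. The higher one was Ept1, the transferase of the last step, with 10.3 and 10.8 RPKM in shLuc and 10.9, 11.04 and 11.4 RPKM in the pathway libraries, a difference within its error (0.06, SE 0.09).

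Across the whole table the 3 inhibitions shared little that stood clear of the spread between libraries. With limma's moderated test and Benjamini-Hochberg adjustment, 0 of 11816 genes passed an adjusted p of 0.05, or 0.0% of genes tested, and the least adjusted p was 0.602. At an unadjusted p under 0.05 there were 748 genes (6.33%), 254 higher (2.15%) and 494 lower (4.18%). limma-voom on the reads recovered from the table also called 0 genes, with 807 at an unadjusted p under 0.05. Accordingly no gene below is said to have changed, and its values are given as levels. All named genes that were tested had adjusted p-values of 0.602 to 0.965 in this fit. A comparison of 3 against 2 libraries has 10 splits, and an exact permutation test of a single gene cannot give a p under 0.1.

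On one side in all 6 pairs were 2805 genes, or 23.7% of those tested, with 924 higher (7.82%) and 1881 lower (15.9%). The excess of lower genes depended on the scaling. After scaling the libraries to a common median ratio the counts were 1424 higher (12.1%) and 1306 lower (11.1%), and after quantile normalization 1315 (11.1%) and 1388 (11.7%). The median difference over all genes was -0.03 as deposited and within 0.001 of 0 on the log2 scale after either step. With the trend in transcript length removed the counts were 1434 higher (12.1%) and 1435 lower (12.1%). Leaving out a library leaves fewer pairs to satisfy. The counts were then 1436 (12.2%) higher and 2262 (19.1%) lower without shEtnk1/2, 1885 (16.0%) and 3674 (31.1%) without shPcyt2, and 1438 (12.2%) and 3170 (26.8%) without Etn-deprived. They were 2132 (18.0%) and 3467 (29.3%) without shLuc replicate 1, and 2062 (17.5%) and 3428 (29.0%) without the library labelled shLuc replicate 2. Most of these genes lay close to the boundary. The nearest inside it on the higher side was Ghitm, with a gap of 1.77e-05, and the nearest outside was Anxa4, with -1.55e-05. On the lower side Papln (2.29e-05) lay just inside and Erbb2 (-5.63e-05) just outside. A gap of at least 0.1 was left in 191 higher genes (1.62%) and 413 lower genes (3.5%), and one of at least 0.2 in 46 (0.389%) and 82 (0.694%).

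**Figure D1:**
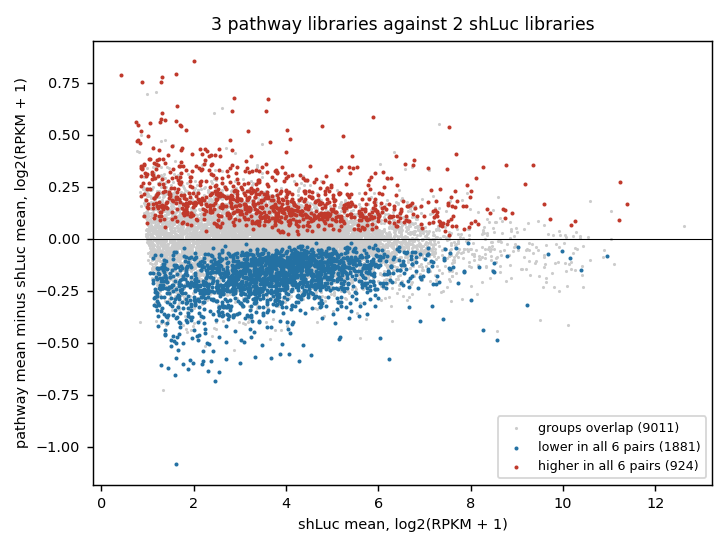
The mean of the 3 pathway libraries minus the mean of the 2 shLuc libraries (vertical axis) is plotted against the shLuc mean (horizontal axis), both on the log2(RPKM + 1) scale, with 1 point per gene tested. Red points are the 924 genes higher in all 6 pairs, blue points the 1881 lower in all 6, and grey points the 9011 whose groups overlapped, and the widest differences lie among genes of low level.

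The shPcyt2 library lay nearest to shLuc. Over the 924 higher genes the median difference from the shLuc mean was 0.19 in shEtnk1/2, 0.12 in shPcyt2 and 0.18 in Etn-deprived. Among the 1881 lower genes the medians were -0.20, -0.12 and -0.16. The shPcyt2 library was the nearest of the 3 to shLuc for 52.6% of the higher and 52.0% of the lower genes, and shEtnk1/2 was the furthest for 46.2% and 49.97%. These shares describe genes already chosen for lying on one side. The genes on the higher and lower sides had median transcript lengths of 2976 and 3107 nt, against 2952 nt for all tested, and median levels of 12.5 and 11.9 RPKM, against 12.2. Genes with wider gaps were of lower level. Of the 46 higher genes with a gap of at least 0.2, 63.0% had a mean under 5 RPKM, as had 57.3% of the 82 lower ones and 23.9% of all genes tested.

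The genes with the 12 widest gaps on the higher side were led by Tnmd. Tnmd (tenomodulin, a membrane protein of tendon; mm10 chromosome X, 133851008 to 133865578) had 1.46 and 1.53 RPKM in shLuc and 3.24, 3.39 and 3.203 RPKM in the pathway libraries. The pathway libraries lay together at 2.19 times the shLuc mean, with shPebp1 at 1.86 RPKM, and the difference was 0.78, SE 0.11 from 39 to 87 reads per library. Alox5ap, the protein that activates 5-lipoxygenase in leukotriene synthesis, had 1.34 and 1.55 RPKM in shLuc and 3.38, 2.78 and 3.21 RPKM in the pathway libraries (0.75, SE 0.13). Cxcl10, a chemokine induced by interferon, had 0.316 and 0.37 RPKM in shLuc and 2.02, 0.892 and 1.17 RPKM in the pathway libraries. This was the widest fold among the 12, at 3.98 times the shLuc mean, but it rested on 7 and 8 reads in shLuc and 19 to 44 in the pathway libraries.

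Of the remaining genes on that side, Spp1 (osteopontin, a secreted phosphoprotein of bone; mm10 chromosome 5, 104435111 to 104441053) had 9.93 and 11.9 RPKM in shLuc and 18.7, 15.1 and 17.8 RPKM in the pathway libraries and a difference of 0.61, SE 0.11, from 332 to 613 reads. Angptl1, a secreted angiopoietin-like protein, had 6.79 and 5.57 RPKM in shLuc and 11.9, 8.77 and 9.37 RPKM in the pathway libraries (0.61, SE 0.13). Both were clearly expressed in every library, and by the rule that chose them shLuc and pathway values did not overlap. Cntfr, the receptor of ciliary neurotrophic factor, differed by 0.55, Ankrd1, a nuclear and sarcomeric ankyrin repeat protein, by 0.75, and Steap1, a membrane metalloreductase family protein, by 0.79. F3 (tissue factor, which starts blood clotting) had 4.12 and 3.93 RPKM in shLuc and 5.503, 5.83 and 5.53 RPKM in the pathway libraries (0.40). Rem1 (a small GTPase, 0.56), Cacnb2 (a calcium channel subunit, 0.36) and the transcript 4930444P10Rik (0.56) completed the 12. For Ankrd1 and Steap1 the shLuc libraries lay apart themselves, at 0.534 and 1.21 RPKM against 1.98, 2.11 and 2.22 RPKM and 1.39 and 2.88 RPKM against 4.58, 4.203 and 4.07 RPKM, shLuc first.

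On the lower side the widest gap was that of Cox7a1, the heart and muscle form of a cytochrome c oxidase subunit, with 2.57 and 1.67 RPKM in shLuc and 0.138, 0.705 and 0.588 RPKM in the pathway libraries. It rested on 1 to 19 reads per library. Inha (the inhibin alpha subunit, a hormone precursor of the TGF-beta family; mm10 chromosome 1, 75507077 to 75510354) had 4.85 and 4.83 RPKM in shLuc and 3.22, 2.89 and 2.21 RPKM in the pathway libraries (-0.64, SE 0.13), and shPebp1 at 2.9 RPKM lay with the pathway libraries. Aim2, a sensor of cytosolic DNA, had 3.75 and 4.67 RPKM in shLuc and 1.94, 2.79 and 2.71 RPKM in the pathway libraries (-0.59, SE 0.15). Trpv6, a calcium channel, had 3.47 and 4.08 RPKM in shLuc and 2.39, 2.59 and 2.46 RPKM in the pathway libraries (-0.45, SE 0.12), and Dab1, an adaptor of reelin signalling, had 3.18 and 4.02 RPKM in shLuc and 1.82, 2.29 and 2.36 RPKM in the pathway libraries (-0.54, SE 0.14). By the rule that chose these 4 genes, the shLuc pair lay above all 3 pathway libraries in each.

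Gm1821 was the most abundant of the 12 lower genes, with 37.3 and 32.2 RPKM in shLuc and 23.97, 25.3 and 24.4 RPKM in the pathway libraries (-0.48, SE 0.09), and whether a near-identical copy shares its reads was not tested. Igflr1, a receptor of the tumour necrosis factor receptor family, differed by -0.54, and Mpzl3, a membrane protein of the immunoglobulin superfamily, by -0.39. The others were the transcripts Ino80dos (-0.62), 2610318N02Rik (-0.43), 4930579G18Rik (-0.46) and C030037D09Rik (-0.46). The shPebp1 library, outside the comparison, lay under both shLuc libraries for each of the 12 except Dab1 (3.23 RPKM). For Gm1821, at 21.9 RPKM, it lay under the pathway libraries too. All 24 genes, which were chosen by the width of the gap, kept their side under quantile normalization and with the trend in transcript length removed. The 12 lower ones also did under median-ratio scaling, which could move no higher gene off its side. That step was small (size factors of 0.971 to 1.017) beside their gaps of at least 0.315, so it could hardly move them. Leaving out a library only removes pairs, so it could not move a gene off its side.

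**Figure D2:**
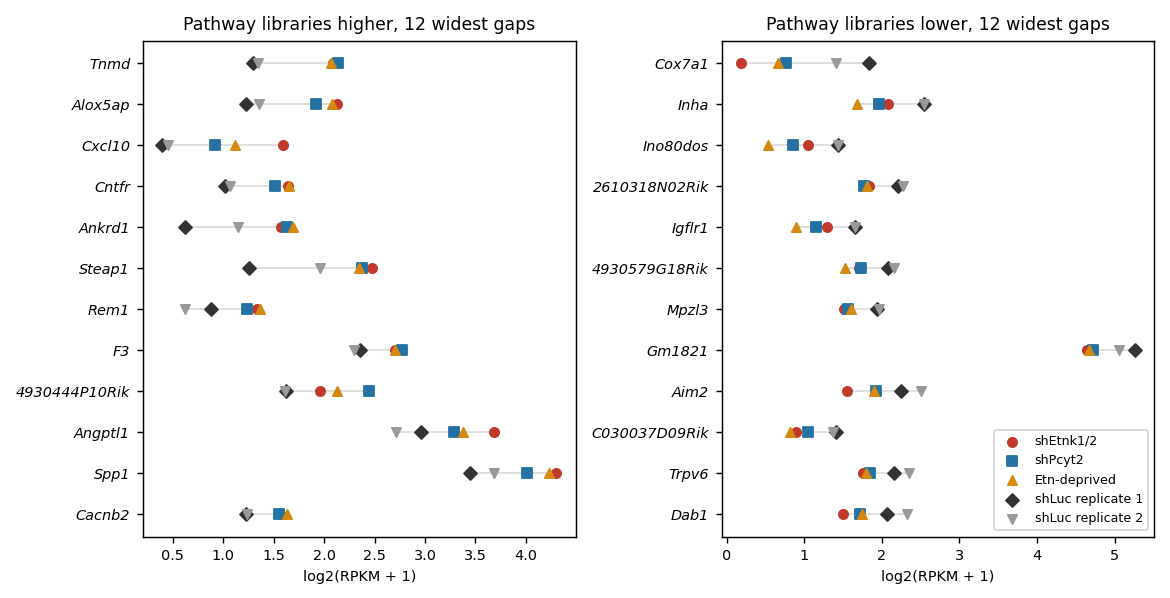
Each row is a gene and each point 1 library, placed on the log2(RPKM + 1) scale, with the 12 widest gaps on the higher side at left and the 12 on the lower side at right. Red circles, blue squares and orange triangles are shEtnk1/2, shPcyt2 and Etn-deprived, and dark diamonds and grey triangles are shLuc replicates 1 and 2, and Tnmd and Cox7a1 lead with gaps of 0.73 and 0.64.

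Genes of the extracellular matrix lay more often on the higher than on the lower side in each of 6 lists. Lists and members were chosen with earlier results of these data known, so their counts are descriptions, to be read against 7.82% higher and 15.9% lower for all genes tested. Of 10 small leucine-rich proteoglycans, which bind collagen fibrils, 6 lay on the higher side and 0 on the lower, with a median difference of 0.33. Of 28 matrix glycoproteins and matricellular proteins 10 lay higher and 0 lower (median 0.16). Of 17 matrix proteases and inhibitors 6 lay higher and 0 lower (0.20). Of 22 collagens 6 lay higher and 2 lower (0.14), and of 19 genes that process or crosslink collagen 6 and 1 (0.12), the lower one being Pcolce2 (-0.24). Integrins and matrix receptors counted 4 higher and 1 lower, Ddr1 (-0.15), of 22 (0.07). The broader Gene Ontology term extracellular matrix organization was less one-sided. Of its 68 genes tested 9 lay higher (13.2%) and 6 lower (8.82%), with a median of 0.04. limma called 0 members of any list.

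In each of these lists shEtnk1/2 had the highest median of the 3 libraries. For the proteoglycans the medians were 0.59 in shEtnk1/2, 0.12 in shPcyt2 and 0.17 in Etn-deprived, and for the collagens 0.31, 0.04 and 0.04. Without shEtnk1/2 the median over the remaining pathway libraries was 0.19 for the proteoglycans, 0.04 for the collagens, 0.09 for the glycoproteins, 0.10 for the proteases and inhibitors and 0.04 for the integrins. Without shPcyt2 the integrin median was 0.10. Without the library labelled shLuc replicate 2 the medians of the proteoglycans and collagens were 0.28 and 0.14. The summed level of the 11 fibroblast markers, several of which are matrix genes, was higher in the same libraries. It was 10698 and 10682 RPKM in shLuc and 13596, 11188 and 11431 RPKM in shEtnk1/2, shPcyt2 and Etn-deprived, and its part in these differences was not tested.

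Among the proteoglycans, Ogn (osteoglycin) had 24.9 and 28.2 RPKM in shLuc and 47.4, 32.9 and 37.996 RPKM in the pathway libraries (0.54, SE 0.14), and shEtnk1/2 was the highest. Aspn (asporin) had 82.2 and 83.4 RPKM in shLuc and 137, 87.6 and 109 RPKM in the pathway libraries (0.40), with shPcyt2 hardly above shLuc. Bgn (biglycan), one of the most abundant, had 684 and 613 RPKM in shLuc and 1023, 728 and 767 RPKM in the pathway libraries (0.36). Kera (keratocan) and Omd (osteomodulin) differed by 0.42 and 0.49.

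Postn (periostin, a matricellular protein of collagen-rich tissue) had 169.7 and 201 RPKM in shLuc and 346, 222 and 249.9 RPKM in the pathway libraries (0.54, SE 0.17). Thbs1 (thrombospondin 1, which binds matrix and growth factors) had 320.5 and 299 RPKM in shLuc and 460.1, 349 and 379.8 RPKM in the pathway libraries (0.35, SE 0.11). In both genes the order was the same, with shEtnk1/2 highest, Etn-deprived next and shPcyt2 nearest to shLuc. Cyr61, a matricellular protein made by cells under tension, differed by 0.18, and Fbln2 (fibulin 2) by 0.26.

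Among the collagens, Col5a2 (a chain of the fibril-nucleating collagen V) had 258 and 258 RPKM in shLuc and 335, 284 and 292 RPKM in the pathway libraries (0.23, SE 0.09). Col12a1, a collagen on the surface of fibrils, had 182 and 175 RPKM in shLuc and 265, 193 and 225 RPKM in the pathway libraries (0.34, SE 0.12), and Col16a1 and Col8a2 differed by 0.23 and 0.43. The chains of collagen I, Col1a1 (0.27) and Col1a2 (0.16), also lay on the higher side, though with quantile normalization Col1a2 was at -0.04. The basement membrane chains Col4a1 (-0.14) and Col4a2 (-0.09) were the 2 collagens on the lower side. Lox, the oxidase that crosslinks collagen and elastin, had 132 and 138 RPKM in shLuc and 199, 144 and 173 RPKM in the pathway libraries (0.34, SE 0.12). Its relative Loxl4 had 4.19 and 4.24 RPKM in shLuc and 4.82, 5.09 and 5.23 RPKM in the pathway libraries (0.21), and P4ha3, a collagen prolyl hydroxylase, differed by 0.32.

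Among the higher members of the protease list were the enzymes Mmp3, Mmp10, Mmp13, Mmp23 and Plat. Mmp13 (collagenase 3) had 8.57 and 14.7 RPKM in shLuc and 18.3, 17.4 and 20.1 RPKM in the pathway libraries (0.67, SE 0.18), and the shLuc libraries lay further from each other than shLuc replicate 2 lay from the pathway libraries. Mmp10 (stromelysin 2) had 2.17 and 2.99 RPKM in shLuc and 4.79, 3.78 and 3.84 RPKM in the pathway libraries (0.52, SE 0.14). Plat, the tissue plasminogen activator, had 39.6 and 46.6 RPKM in shLuc and 61.8, 51.6 and 51.2 RPKM in the pathway libraries (0.34, SE 0.11). Itga8, an integrin chain, differed by 0.43, and Itgb1, the chain shared by most collagen receptors, had 250.2 and 252 RPKM in shLuc and 302, 266 and 298 RPKM in the pathway libraries (0.20).

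Of 10 genes of the tendon and bone lineages, 6 lay higher and 1 lower, with a median of 0.23 and with medians of 0.37, 0.25 and 0.32 in shEtnk1/2, shPcyt2 and Etn-deprived. Besides Tnmd and Spp1, they were Tnn (tenascin N; 0.45), Lrrc15 (a membrane protein of activated fibroblasts; 33.9 and 39.97 RPKM against 62.5, 46.5 and 49.2 RPKM, 0.49), Runx2 (the regulator of bone formation; 0.15) and Mkx (a tendon transcription factor; 0.20). The one lower gene was Alpl, alkaline phosphatase, an early marker of reprogramming and of bone, with 11.2 and 11.4 RPKM in shLuc and 9.298, 9.501 and 7.39 RPKM in the pathway libraries (-0.34, SE 0.11). The shLuc libraries themselves differed by a median of 0.15 in this list, replicate 2 being the higher.

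Contractile genes had 7 of 17 members on the higher side and 1 on the lower (median 0.16). Acta2 (smooth muscle actin) had 177 and 233 RPKM in shLuc and 317, 259.9 and 238 RPKM in the pathway libraries (0.41, SE 0.14) and Cnn1 (calponin 1) had 1.92 and 4.48 RPKM in shLuc and 7.74, 5.85 and 5.33 RPKM in the pathway libraries (0.86, SE 0.24). In both the shLuc libraries stood far apart, and the list had a median of 0.13 in shLuc replicate 2 over replicate 1. Cald1 (caldesmon) had 184 and 179 RPKM in shLuc and 212, 201 and 198 RPKM in the pathway libraries (0.16), with the shLuc pair close together. Tpm1 (tropomyosin) differed by 0.24, and the lower member was Actg2 (-0.22). Markers of skeletal muscle, few of which passed the filter, summed to 3.77 and 6.96 RPKM in shLuc and 7.51, 5.64 and 5.08 RPKM in the pathway libraries, and their part was not tested.

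Targets of the growth factors TGF-beta and BMP had 8 of 22 members higher and 0 lower (median 0.14). Without shLuc replicate 1 the median was 0.05, with 9 members higher and 3 lower, against 18.0% and 29.3% of all genes. Without shEtnk1/2 it was 0.07. Without shPcyt2, 12 members lay higher and 2 lower, against 16.0% and 31.1% of all genes. Smad6, an inhibitory Smad, had 2.17 and 2.41 RPKM in shLuc and 4.05, 3.11 and 3.15 RPKM in the pathway libraries (0.43, SE 0.13), and Id4, an inhibitor of helix-loop-helix factors, had 3.88 and 3.52 RPKM in shLuc and 5.76, 4.91 and 4.502 RPKM in the pathway libraries (0.36, SE 0.12). Ctgf (connective tissue growth factor) differed by 0.15 and Cdkn2b (the cyclin-dependent kinase inhibitor p15) by 0.25. In the insulin-like growth factor system 5 of 15 genes lay higher and 1, Igf1r (-0.07), lower (median 0.15), and the median was 0.09 without the library labelled shLuc replicate 2 and 0.09 without shEtnk1/2. Igf2, a fetal growth factor, had 404 and 462 RPKM in shLuc and 632, 531 and 501 RPKM in the pathway libraries (0.35, SE 0.11), and Igfbp7, a secreted binding protein, 63.1 and 56.1 RPKM in shLuc and 84.2, 66.3 and 73.1 RPKM in the pathway libraries (0.31, SE 0.11).

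**Figure D3:**
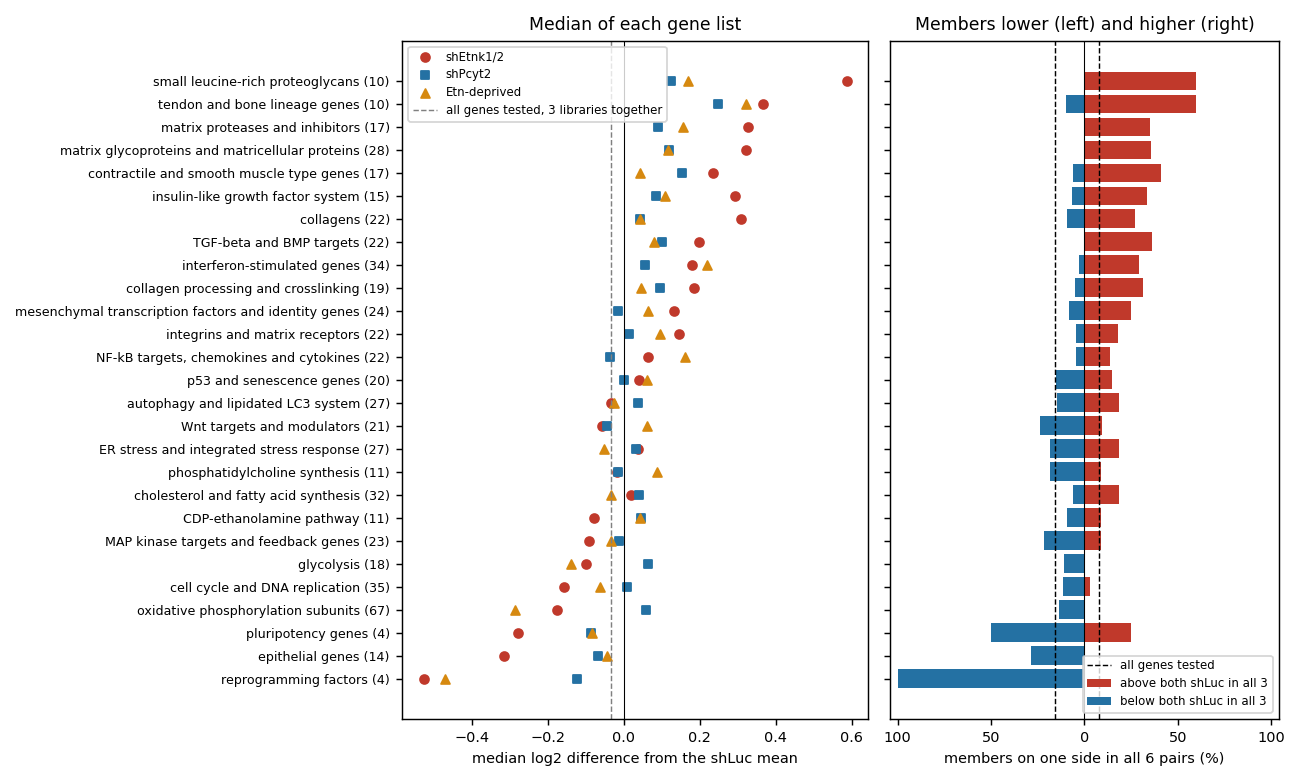
At left, the median log2(RPKM + 1) difference from the shLuc mean is shown for each gene list (members tested in brackets) in shEtnk1/2 (red circles), shPcyt2 (blue squares) and Etn-deprived (orange triangles), with the median of all genes as a dashed line. At right, bars give the percent of members lower (blue, to the left) or higher (red, to the right) in all 6 pairs beside dashed lines for all genes tested (15.9% and 7.82%), and matrix and tendon lists lie at the top and the reprogramming factors at the bottom.

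The reprogramming factors Pou5f1, Sox2, Klf4 and Myc lay on the lower side, 4 of 4 tested, with a median of -0.38 and with medians of -0.53, -0.12 and -0.47 in shEtnk1/2, shPcyt2 and Etn-deprived. Klf4 (mm10 chromosome 4, 55527137 to 55532475) had 394 and 362 RPKM in shLuc and 262, 314 and 238 RPKM in the pathway libraries. Its difference was -0.49, SE 0.11. Sox2 had 311 and 303 RPKM in shLuc and 209, 277 and 200.3 RPKM in the pathway libraries (-0.44, SE 0.13), and Pou5f1 (Oct4) had 619.8 and 569 RPKM in shLuc and 412, 554 and 472 RPKM in the pathway libraries (-0.32, SE 0.12). Myc was near its error at -0.12, SE 0.09. The shPebp1 library, outside the comparison, also lay under both shLuc libraries in all 4 genes. It had 327, 270, 549 and 6.74 RPKM for Klf4, Sox2, Pou5f1 and Myc, and a median of -0.20, further from shLuc than shPcyt2. Lower levels of the 4 factors were thus not particular to the pathway libraries. In Klf4 and Sox2 the Etn-deprived library was the lowest and in Pou5f1 shEtnk1/2 was, and shPcyt2 was the nearest to shLuc in all 4 genes. With median-ratio scaling 3 of the 4 lay lower, Myc overlapping. Without shPcyt2, limma called Klf4 (-0.60, adjusted p = 0.0464) and Sox2 (-0.58, adjusted p = 0.0321) lower. Over all the alternatives tried the adjusted p of Klf4 ran from 0.0464 to 1.00 and that of Sox2 from 0.0321 to 1.00. The table does not separate introduced copies from the cells' own.

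Pluripotency genes were mostly under the filter, with 4 of the 19 in the table tested. On the lower side were Alpl and Sall1 (-0.22), and on the higher side Klf5 (0.08, within its error). Epithelial genes had 4 of 14 members lower and 0 higher, with a median of -0.23. The medians were -0.31 in shEtnk1/2, -0.07 in shPcyt2 and -0.04 in Etn-deprived, and without shEtnk1/2 the median was -0.05. The lower members were Krt18 (a keratin, -0.22), Jup (plakoglobin, of junctions, -0.24), St14 (matriptase, -0.30) and Epcam (an epithelial adhesion molecule, -0.34). Jup had 30.6 and 32.3 RPKM in shLuc and 25.1, 26.5 and 28.005 RPKM in the pathway libraries. Epcam had 1.11 and 1.92 RPKM in shLuc and 0.909, 0.977 and 1.02 RPKM in the pathway libraries, with shLuc replicate 2 well above replicate 1. Cdh1 (E-cadherin) was not one of the 4. It had 10.9 and 9.35 RPKM in shLuc and 6.04, 9.34 and 10.04 RPKM in the pathway libraries (-0.25, SE 0.18), lowest in shEtnk1/2, and the groups overlapped.

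Mesenchymal transcription factors and identity genes had 6 of 24 higher and 2 lower (median 0.08). The median was 0.03 without the library labelled shLuc replicate 2 and 0.04 without shEtnk1/2. Pdgfra, a growth factor receptor of fibroblasts, had 27.1 and 26.8 RPKM in shLuc and 36.4, 28.6 and 33.8 RPKM in the pathway libraries (0.27, SE 0.10), and Prrx1, a mesenchymal homeobox factor, had 55.95 and 53.7 RPKM in shLuc and 65.7, 57.3 and 65.3 RPKM in the pathway libraries (0.19). Snai1, a repressor of Cdh1, had 7.91 and 10.6 RPKM in shLuc and 13.8, 10.6 and 11.1 RPKM in the pathway libraries, so that shPcyt2 equalled shLuc replicate 2 within counting error. The other repressors Snai2 (0.09, SE 0.12), Zeb1 (0.19, SE 0.11) and Zeb2 (0.08, SE 0.11) overlapped between groups, as did Thy1 (0.11, SE 0.13), a fibroblast surface marker, and Fn1 (fibronectin, 0.08, SE 0.09). Cd34 (-0.18) and Eng (-0.05), both surface markers, were the lower members. Twist2 differed by 0.18 and Vim (vimentin) by 0.09.

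**Figure D4:**
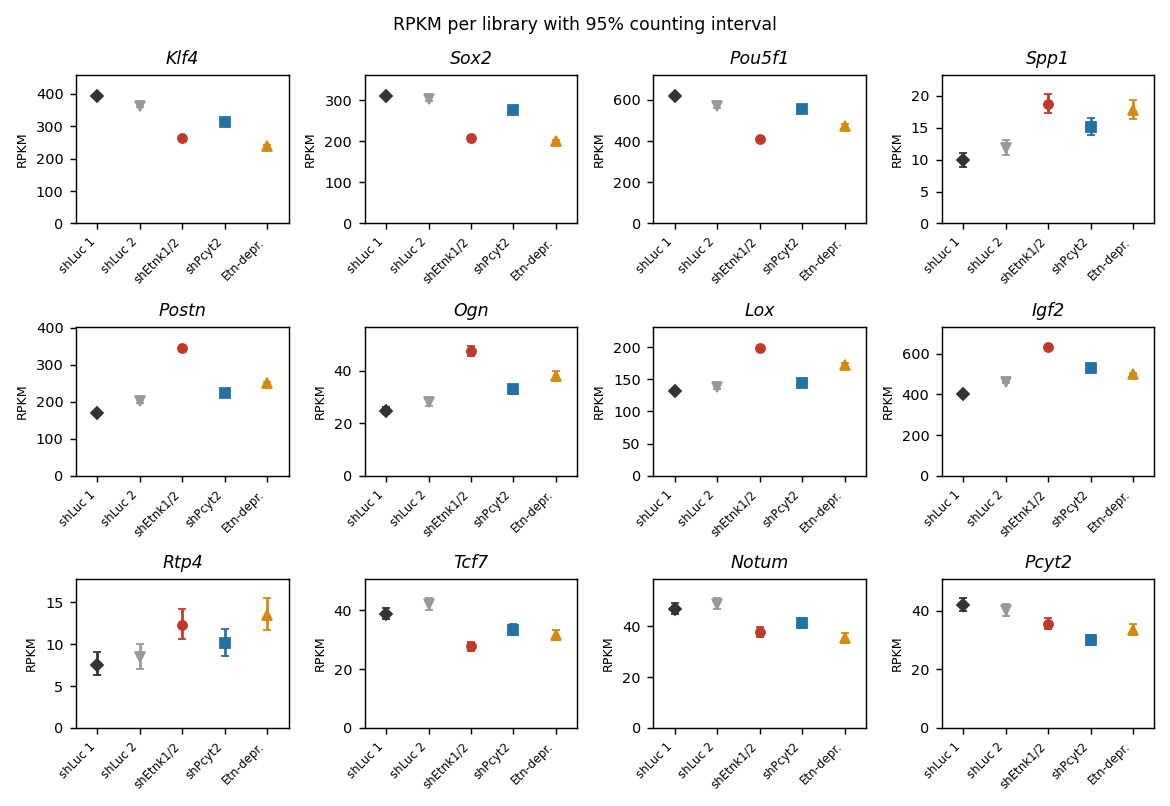
RPKM (vertical axes, from 0) in shLuc replicates 1 and 2, shEtnk1/2, shPcyt2 and Etn-deprived is plotted for 12 genes, 1 point per library, with 95% Poisson intervals from the recovered reads as error bars, which cover counting error only. The pathway libraries lie under both shLuc libraries for Klf4, Sox2, Pou5f1, Tcf7, Notum and Pcyt2 and above them for Spp1, Postn, Ogn, Lox, Igf2 and Rtp4.

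Interferon-stimulated genes, which cells switch on through factors such as Stat2 and Irf9, had 10 of 34 members on the higher side and 1, Ifi35 (-0.18), on the lower, with a median of 0.13. The medians were 0.18, 0.05 and 0.22 in shEtnk1/2, shPcyt2 and Etn-deprived. In shPebp1, outside the comparison, the median was 0.11, above that of shPcyt2, so higher values were not particular to the pathway libraries. These factors bind the interferon-stimulated response element, searched here on both strands as GAAA, any 2 bases and GAAA in the 250 bases before the gene start (RefSeq, GRCm38.p6). Of the 10 higher members 7 had a promoter in that table, and 6 of the 7 held the motif, as did 12 of the 27 matched among all members tested. Of the 8961 promoters matched for all genes tested, 2.94% held it, and of those of the genes on the higher and lower sides 4.57% and 1.92%. The promoters of 4 higher members are shown, 5′ to 3′ on the gene's strand and ending at the base before the start, with matches to the motif or its reverse complement in capitals (in Isg15 3 overlapping matches run together). They are Cxcl10 (chr5:92348890-92349139, minus strand), Igtp (chr11:58199306-58199555, plus), Isg15 (chr4:156200819-156201068, minus) and Gbp7 (chr3:142530086-142530335, plus). A match describes these letters and is not shown to be a site in use.
Cxcl10: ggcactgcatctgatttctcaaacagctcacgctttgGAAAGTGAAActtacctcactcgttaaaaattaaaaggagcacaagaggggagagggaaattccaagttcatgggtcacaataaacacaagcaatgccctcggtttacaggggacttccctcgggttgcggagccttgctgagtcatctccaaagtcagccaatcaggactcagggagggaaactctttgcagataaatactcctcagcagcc
Igtp: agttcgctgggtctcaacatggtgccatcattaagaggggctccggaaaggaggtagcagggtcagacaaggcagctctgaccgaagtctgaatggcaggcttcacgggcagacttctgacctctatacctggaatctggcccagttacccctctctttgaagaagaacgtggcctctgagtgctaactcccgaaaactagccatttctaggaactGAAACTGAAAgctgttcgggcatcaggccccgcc
Isg15: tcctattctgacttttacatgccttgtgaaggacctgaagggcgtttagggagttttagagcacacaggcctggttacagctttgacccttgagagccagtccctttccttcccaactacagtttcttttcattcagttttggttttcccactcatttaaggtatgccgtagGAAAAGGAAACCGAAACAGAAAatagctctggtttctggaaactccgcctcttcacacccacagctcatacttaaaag
Gbp7: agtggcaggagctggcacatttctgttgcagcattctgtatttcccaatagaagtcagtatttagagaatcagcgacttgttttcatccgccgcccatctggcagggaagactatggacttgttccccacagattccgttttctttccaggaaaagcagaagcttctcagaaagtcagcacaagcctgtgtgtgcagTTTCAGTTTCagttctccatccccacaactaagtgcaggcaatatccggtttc

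Of the higher members named here, Cxcl10, Igtp and Irf7 had low levels and B2m was the most abundant. Igtp, an interferon-induced GTPase, had 1.62 and 1.83 RPKM in shLuc and 2.75, 2.65 and 2.42 RPKM in the pathway libraries (0.40, SE 0.12), and Gbp7, a guanylate-binding protein, differed by 0.23. Rtp4, a chaperone of receptors that interferon induces, had 7.57 and 8.46 RPKM in shLuc and 12.3, 10.1 and 13.5 RPKM in the pathway libraries (0.52, SE 0.12), and 12.3 RPKM in shPebp1. Stat2 and Irf7 differed by 0.19 and 0.18. In shPebp1 the low-level genes Cxcl10, Igtp and Irf7 had 1.56, 1.96 and 3.55 RPKM, each above both shLuc libraries. Isg15, a ubiquitin-like protein, had 9.05 and 4.37 RPKM in shLuc and 12.5, 10.8 and 9.17 RPKM in the pathway libraries, so that the shLuc libraries lay further apart than replicate 1 lay from any pathway library. B2m, a subunit of class I antigens, had 426 and 410.3 RPKM in shLuc and 491, 434 and 458 RPKM in the pathway libraries (0.14). The list was lower in shLuc replicate 2 than in replicate 1, by a median of 0.10, and its median was 0.14 without replicate 2 and 0.19 without replicate 1. Without replicate 2 the members on the higher and lower sides were 13 and 8, against 17.5% and 29.0% of all genes. Markers of macrophages, 0 of 5 on either side, summed to 58.1 and 59.6 RPKM in shLuc and 68.9, 55.2 and 59.3 RPKM in the pathway libraries.

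Among other motifs searched, TATAAA was held by 7.57% of all matched promoters and by 11.8% and 7.47% of those on the higher and lower sides. For CACCTG, which Snai and Zeb factors bind, the shares were 17.1%, 14.6% and 18.2%. CCAAT was in 40.8%, 43.2% and 40.4% and GGGCGG in 66.4%, 66.0% and 66.8%. The promoter shares of the chosen sides are descriptions without a test.

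Wnt targets and modulators had 5 of 21 members lower (23.8%) and 2 higher (9.52%), against 15.9% and 7.82% of all genes. The list median was 0.02 (-0.01 without the library labelled shLuc replicate 2). Without shLuc replicate 1 the median was 0.11, with 11 members higher and 8 lower, against 18.0% and 29.3% of all genes. The 5 lower members were Wnt targets, but other targets in the list, Nkd1, Nkd2, Rnf43, Znrf3, Sp5 and Lgr5, were not among them. Some of these others may have been under the filter. Tcf7, a transcription factor of Wnt signalling, had 38.7 and 42.1 RPKM in shLuc and 27.7, 33.4 and 31.4 RPKM in the pathway libraries (-0.38, SE 0.09), and Lef1, its relative, had 9.27 and 11.4 RPKM in shLuc and 7.11, 8.93 and 7.31 RPKM in the pathway libraries (-0.37, SE 0.12). Notum, a secreted inhibitor of Wnt proteins, had 46.9 and 48.7 RPKM in shLuc and 37.6, 41.2 and 35.4 RPKM in the pathway libraries (-0.32, SE 0.09). Axin2, a feedback inhibitor, differed by -0.16 and Apcdd1, a membrane inhibitor, by -0.15. In all 5 genes the shPcyt2 value was the one nearest to shLuc, and for Tcf7, Notum, Axin2 and Lef1 shPebp1, at 40.9, 45.8, 53.9 and 10.8 RPKM, lay at or near the shLuc values. Wnt4 (0.18) and Wnt11 (0.15), which encode ligands, were the higher members.

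Genes of oxidative phosphorylation stood apart between the treatments, a difference that was not tested. Of 67 subunits of oxidative phosphorylation 9 lay lower (13.4%, under the 15.9% for all genes tested) and 0 higher, with medians of -0.18 in shEtnk1/2, 0.06 in shPcyt2 and -0.28 in Etn-deprived. The count depended on shPcyt2: without it 56 of the 67 lay lower, against 31.1% of all genes, with a median of -0.24. It was 19 without shLuc replicate 1, against 29.3% of all genes, and 15 without the library labelled shLuc replicate 2, against 29.0%. Without Etn-deprived the median was -0.06. Atp5k, a subunit of ATP synthase, had 35.2 and 34.98 RPKM in shLuc and 25.1, 30.8 and 20.1 RPKM in the pathway libraries (-0.47, SE 0.15), and Ndufa12, of complex I and chosen after its values were seen, had 73.02 and 74.5 RPKM in shLuc and 44.6, 71.2 and 36.99 RPKM in the pathway libraries (-0.58, SE 0.22). For Ndufa12 shPcyt2 was close to shLuc while the other 2 libraries were far below. Cox7c, of cytochrome c oxidase, had 145 and 146 RPKM in shLuc and 118, 133 and 124 RPKM in the pathway libraries (-0.22) and Atp5e 139 and 144 RPKM in shLuc and 116, 132 and 94.2 RPKM in the pathway libraries (-0.33). The subunits are short transcripts, with a median of 684 nt against 2952 nt for all genes. Genes of up to 700 nt, 326 in all, had medians of -0.17 in shEtnk1/2, 0.05 in shPcyt2 and -0.26 in Etn-deprived, and the 2288 genes over 5000 nt had -0.04, -0.06 and 0.04. With the trend in length removed 11 subunits lay lower and 1 higher, against 12.1% of all genes on either side.

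**Figure D5:**
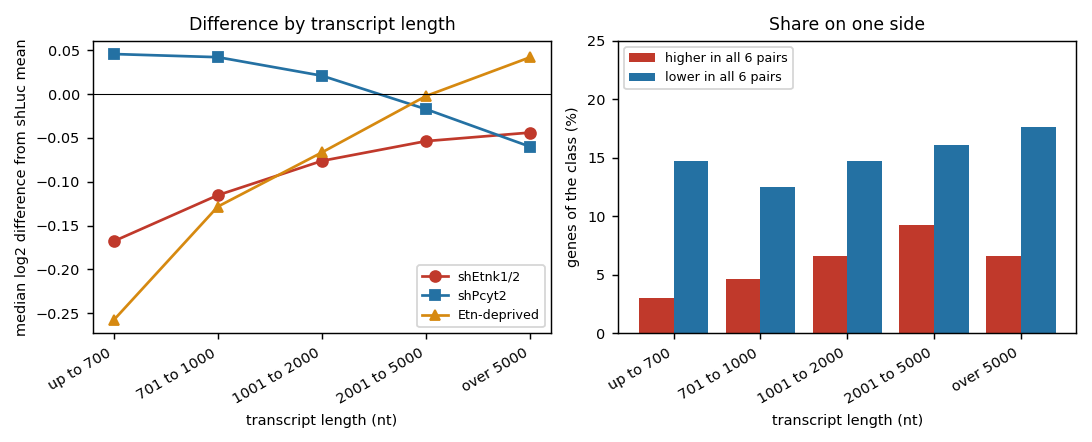
At left, the median log2(RPKM + 1) difference from the shLuc mean is given for 5 classes of transcript length in shEtnk1/2 (red circles), shPcyt2 (blue squares) and Etn-deprived (orange triangles), and the shortest class is at -0.17, 0.05 and -0.26. At right, bars give the percent of genes of each class higher (red) or lower (blue) in all 6 pairs, from 3.07% to 9.28% higher and from 12.5% to 17.7% lower.

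Cell cycle genes had 4 of 35 on the lower side and 1 on the higher, both shares under those of all genes. Their median was -0.09, against -0.03 for all genes, and 6 of the 35 had a mean above shLuc. Without shPcyt2, 1 lay higher and 18 lower, against 16.0% and 31.1% of all genes. Without shEtnk1/2 the median was -0.04. Mcm7, of the replicative helicase, had 66.9 and 68.8 RPKM in shLuc and 54.6, 59.9 and 61.2 RPKM in the pathway libraries (-0.21, SE 0.08). Gmnn and Mcm5 differed by -0.15 and -0.16, and Ccne1 (cyclin E1), the higher member, by 0.19. Neural and glial markers had 2 of 7 lower, Nes (36.6 and 38.3 RPKM against 29.1, 33.8 and 31.2 RPKM, shLuc first) and Tubb3 (-0.26). Their summed level was 116.3 and 123.2 RPKM in shLuc and 90.7, 116.0 and 108.7 RPKM in the pathway libraries.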

How the data were processed

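Per the labels' protocols, poly(A) RNA libraries were read as paired ends. The authors deposited 1 RPKM value per gene and library, and per the submitters' processing notes Bowtie 0.12.2 and mm10 were used. Counting program, gene models and strand setting were not given in the sources used here. Columns were assigned by the names in the labels. The relative depth of the libraries was read from ratios of RPKM values, and whole reads were recovered for all 18303 rows (within 0.0001 reads plus a relative 5e-08), with transcript lengths from them. Intervals are 95% Poisson intervals and cover counting error only. PCR reads are not independent molecules. Rows of 2 repeated symbols were reduced to the one with the higher mean, and 350 short RNA rows were left out.

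Genes averaging at least 1 RPKM were analysed as log2(RPKM + 1) in limma 3.58.1 (R 4.3.3), using eBayes with trend and robust options, 3 pathway against 2 shLuc libraries, 3 residual degrees of freedom (prior 6.92), two-sided, Benjamini-Hochberg over 11816 genes, threshold 0.05. The fit was tested on simulated data. The spread includes differences between the treatments. Alternatives were a pseudocount of 0.1, other filters, median-ratio, quantile and length-trend (loess, span 0.5) corrections, limma without trend or robust step, limma-voom, and leaving out each library. Named genes were the targeted genes, the 12 widest gaps per direction, up to 4 members per list with the widest gaps, and a panel of 12 genes that included Cdh1. Other list members were chosen after their values were seen. Some list members are not reported here. Members and lists (27 gene lists, 8 lists of other cell types, 20 Gene Ontology terms) were chosen with earlier results of these data known. Promoters came from RefSeq (GRCm38.p6, the same build as mm10), and 8961 of 11816 genes matched by symbol.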

Additional observations from a re-analysis of the deposited data

Results flagged for a closer look

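Glycolysis genes stood on opposite sides of shLuc in different pathway libraries, a difference that was not tested, with 1 library per treatment. In shPcyt2 the median of the 18 genes was 0.08 above shLuc replicate 1 and 0.07 above replicate 2 on the log2 scale, with 12 genes above both. In Etn-deprived it was -0.13 against either, with 14 genes below both, and in shEtnk1/2 -0.09 and -0.10, with 13 genes below both. The distance between shPcyt2 and Etn-deprived, measured from the nearer shLuc library, was 0.197. On the lower side in all 6 pairs were Aldoc (-0.16) and Tpi1 (-0.15), an aldolase and triose phosphate isomerase.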

How the results depend on the processing

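No paired analysis was possible because the pathway groups have 1 library each and carry no replicate number. limma called 0 genes under every alternative except without shPcyt2, where it called 1 gene higher (Nucb2) and 4 lower (Sox2, Klf4, Ndufa12 and Cisd3), so that over the libraries left out the counts ran from 0 to 1 higher and from 0 to 4 lower. Genes on one side numbered 924 higher and 1881 lower. Leaving out 1 library, which leaves fewer pairs to satisfy, gave 1436 to 2132 higher and 2262 to 3674 lower, the lowest without shEtnk1/2 and the highest without shLuc replicate 1 (higher) or shPcyt2 (lower). Without the library labelled shLuc replicate 2 they were 2062 (17.5%) and 3428 (29.0%). Higher genes were 1424 with median-ratio scaling and 1434 with the length trend removed. A gap of at least 0.1 left 191 and 413, and one of at least 0.2 left 46 and 82. Median-ratio scaling raised every pathway library against both shLuc libraries, so that only lower genes could be lost, and 69.4% of these kept their side. Of the named genes' values under the alternatives, 8 changed sign. They were Pcyt1a (0.0123 with median-ratio scaling, 0.0112 with quantile normalization, 0.000874 with the length trend removed), Col1a2 (-0.0366 with quantile normalization), and, over the libraries left out, Etnk1 (-0.404 to 0.0289, the positive value without shEtnk1/2), Snai2 (-0.0079 to 0.201, negative without shEtnk1/2), Zeb2 (-0.00188 to 0.166, negative without Etn-deprived) and Pebp1 (-0.102 to 1.204, negative without shLuc replicate 2). The cause of these was not tested. List medians moved by more than 1 SD of the pathway libraries' medians in 45 of the values computed and by less in 523. Genes with few reads, such as Cxcl10 and Cox7a1, are limited by depth.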

Other observations

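Lists of lipid and stress genes had medians near 0. Of 32 genes of cholesterol and fatty acid synthesis 6 lay higher and 2 lower (median -0.01). The higher ones were led by Fads2, a fatty acid desaturase, with 107 and 105 RPKM in shLuc and 126, 117 and 115 RPKM in the pathway libraries (0.17), and Cyp51, of sterol synthesis (0.13). The lower ones were Fasn (-0.14) and Srebf1 (-0.13), the fatty acid synthase and its regulator. Without shPcyt2 the list counted 11 higher and 10 lower, against 16.0% and 31.1% of all genes. Without shLuc replicate 1 it counted 8 higher and 11 lower, against 18.0% and 29.3%. Phosphatidylcholine synthesis had 1 higher (Slc44a2, 0.14) and 2 lower (Lpcat4, -0.13, and Pcyt1a, -0.02) of 11. Genes of endoplasmic reticulum stress counted 5 higher and 5 lower of 27. Their differences were near their errors, as in Pdia4 (0.09, SE 0.07), an enzyme of protein folding, and Slc7a11 (-0.21, SE 0.13), a cystine transporter. Autophagy genes counted 5 higher, with the lysosomal genes Ctsb (0.16), Lamp1 (0.12) and Ctsl (0.16), and 4 lower, with Atg3 (-0.10), the enzyme that joins LC3 to phosphatidylethanolamine, and Ulk1 (-0.13), of 27. Without shPcyt2 the counts were 7 and 11, against 16.0% and 31.1% of all genes.

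MAP kinase feedback genes had 5 of 23 lower and 2 higher. Etv5 had 19.8 and 18.9 RPKM in shLuc and 13.2, 17.9 and 16.9 RPKM in the pathway libraries (-0.27, SE 0.12), and Spry2 and Dusp1, feedback inhibitors, differed by -0.22 and -0.22, while Errfi1 was at 0.25. Targets of NF-kB and chemokines counted 3 higher and 1 lower of 22. Ccl7 had 42.8 and 38.2 RPKM in shLuc and 52.6, 43.8 and 59.7 RPKM in the pathway libraries (0.35, SE 0.12), and Nfkb1 itself was the lower gene (-0.12). Genes of p53 and senescence counted 3 higher, among them Gadd45a (0.33), and 3 lower, among them Trp53 itself, with 67.4 and 68.2 RPKM in shLuc and 52.4, 64.5 and 56.96 RPKM in the pathway libraries (-0.23), of 20. Among 20 Gene Ontology terms the share higher ran from 0% to 23.5%, highest for collagen fibril organization (8 of 34), and the share lower from 4% to 28.6%, highest for ion transport (8 of 28). Translation had 24 of 141 lower (17.0%, near the 15.9% of all genes) and 1 higher (0.709%, against 7.82%), with a median length of 956 nt. With the length trend removed 17 lay lower and 12 higher, against 12.1% of all genes on either side. Marker lists of other cell types had 0 to 2 members on either side, the most on the higher side being 2 of 4 adipocyte genes, Cd36 (0.15) and Cebpa (0.30).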
